A study of Zea mays with 6 samples.

Results

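Genes whose transcripts were counted in one genotype of maize endosperm and not once in the other are described here. The members were chosen by their values. A gene was taken when its FPKM (fragments per kilobase of exon model, scaled to each library's mapped fragments) was exactly 0 in both libraries of one genotype and at least 5 in both libraries of the other. Of 44303 genes in the tables, 84 met the rule. In 57 of them the zmnac128 zmnac130 mutant was the genotype at 0, and in 27 it was the wild type. Because the FPKM values of this contrast picked the genes, their levels and the size of the difference are given as a description, with no test.

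The study compared endosperm at 16 days after pollination (DAP) from zmnac128 zmnac130 kernels with that from wild-type kernels. In the mutant, both ZmNAC128 and ZmNAC130 are knocked out. The knockouts were made in the inbred KN5585, which was crossed with the inbred B73, and both genotypes came from F2 offspring of that cross, the wild type being nontransgenic siblings. Both groups therefore carry a mixture of B73 and KN5585 chromosomes. RNA of each genotype came from several endosperms, the labels name no single kernel or ear, and the parental genome carried at each locus was not typed in the sources used here, so the NAC mutations and linked or unlinked B73 and KN5585 alleles cannot be told apart. Each genotype has 3 labelled samples, but replicate 3 held the same values as replicate 1 in all 44303 genes in both genotypes and was counted once, which leaves 2 libraries per genotype.

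ZmNAC128 and ZmNAC130 belong to the NAC family of plant transcription factors, and in maize they act in the starchy endosperm during grain filling, when starch and the zein storage proteins are laid down. Maize inbreds differ from one another not only in single bases but also in gene content, so that a gene found in one inbred can be missing, truncated or silent in another. Reads of all libraries were aligned to the genome of B73 alone. A transcript can therefore be counted only where B73 has a gene model for it and where the sequence of the other inbred is close enough to align. The members are identified by their B73 gene model IDs only. None of them is named or described in the sources used here, none is among the 243 high-expression differential genes listed by the study, and no sequence was at hand for them. The list holds 243 of the 44303 genes. So small a share would put few of any 84 genes on it, and nothing is read from the lack of overlap. That list was not drawn from these libraries alone. It required a change in every set of transcriptomes in the study, over different backgrounds and growing years, and high FPKM in the KN5585 background.

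The depth was 30696032 and 29312397 reads in genes in the mutant libraries, against 28478576 and 26317317 in the wild-type libraries, as recovered from the steps of the FPKM values. All 33589 genes above 0 in any library came out as whole reads, within a tolerance of 0.002 reads, so a listed 0 stands for no read assigned. Reads given for a gene are the smallest whole solution, and the true number is that value or a whole multiple of it. The 7 genes described as zeins in the study's list of differential genes, a list selected for a change between these genotypes and not the whole zein family, held 3.56 and 2.59% of all FPKM in the mutant libraries, against 9.26 and 9.28% in the wild-type libraries, and the lowest zein value was 325 FPKM in a mutant library and 1150 FPKM in a wild-type library, so these endosperm markers were read at high levels in both genotypes. In bulk tissue, fewer cells of a type and less RNA per cell cannot be told apart.

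Absence in the mutant was met by 57 of the 11692 genes with at least 5 FPKM in both wild-type libraries, or 0.488%. Absence in the wild type was met by 27 of the 11520 genes with at least 5 FPKM in both mutant libraries, or 0.234%. These shares are the background of the rule itself, and nothing further is read from them. Within a genotype a looser form of the rule was applied, with 1 library at 0 and the other at 5 FPKM or more. It found 1 gene in the mutant and 0 in the wild type. That gene, Zm00001eb179060, had 5.08 and 0 FPKM in the mutant libraries (44 and 0 reads), against 0 and 0.404 FPKM in the wild type (0 and 3 reads). Complete absence at this level of expression was thus met 84 times between genotypes and 1 time within them. The 2 counts are not like for like, because the rule between genotypes needs 2 libraries on each side and the form within them needs 1.

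**Figure D1:**
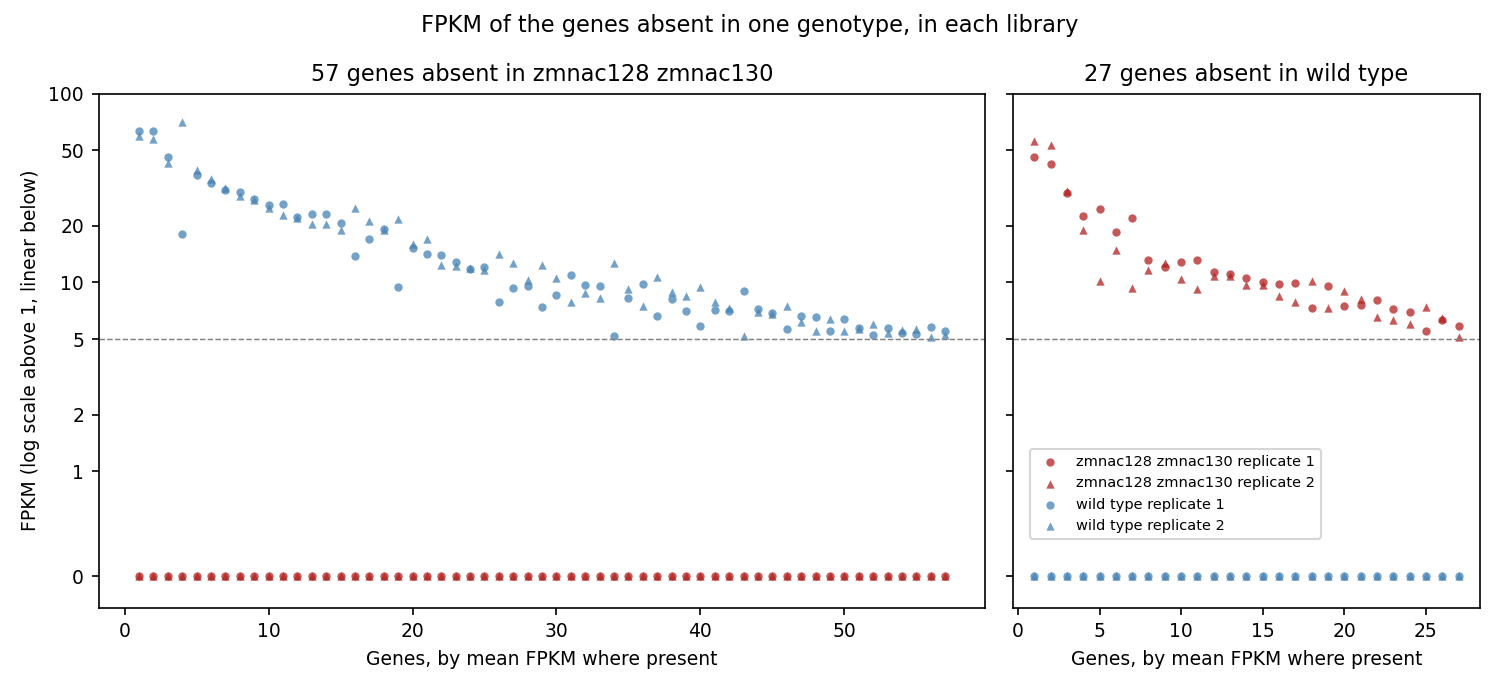
FPKM of each member in each of the 4 libraries, on an axis that is logarithmic above 1 and linear below, with the 57 genes absent in zmnac128 zmnac130 on the left and the 27 genes absent in wild type on the right. Genes are ordered by their mean where present, points are single libraries (red for zmnac128 zmnac130, blue for wild type), and the dashed line marks the threshold of 5 FPKM; most members lie between 5 and 20 FPKM, with single-gene means up to 61.4.

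The genes absent in the mutant were mostly of moderate expression in the wild type. Their mean FPKM there had a median of 9.85 and ran from 5.42 to 61.4, while the median of all 11692 genes at 5 FPKM or more was 15.3. Of the 57 genes, 30 (52.6%) averaged under 10 FPKM, against 29.4% of all such genes, and 14 averaged 20 FPKM or more. Summed over the 57 genes, the wild-type libraries held 861 and 945 FPKM, which is 0.139 and 0.155% of all FPKM. The genes were backed by a median of 381 reads over both wild-type libraries, with a range of 56 to 2471.

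The genes absent in the wild type had similar levels in the mutant. Their mean FPKM had a median of 10.1 and ran from 5.5 to 51.1, against a median of 16.1 over all 11520 genes at 5 FPKM or more in the mutant. Under 10 FPKM lay 13 of the 27 genes (48.1%), against 27.6% of all such genes, and 4 averaged 20 FPKM or more. The 27 genes together held 392 and 367 FPKM in the mutant libraries, or 0.0678 and 0.0625% of all FPKM. Their reads over both mutant libraries had a median of 379 and ran from 38 to 4017.

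A fold change against 0 reads is only a lower bound, taken here against 3 reads over the 2 libraries of the genotype at 0. That number is a usual upper confidence limit for a count of 0. It is not a strict limit, so over many genes the bound can fail for some. The bound covers counting error only. By this bound, expression of the genes absent in the mutant was at least 20.4-fold lower there than in the wild type for the gene with the fewest reads, at least 139-fold lower for the median gene, and at least 902-fold lower for the gene with the most. For the genes absent in the wild type, mutant levels were at least 11.6-fold, 115-fold and 1220-fold higher for the lowest, median and highest bound.

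The highest levels among the genes absent in the mutant belonged to 3 adjacent gene models. Zm00001eb040620 had 0 and 0 FPKM in the mutant libraries, against 63.2 and 59.7 FPKM in the wild-type libraries (61.4 ± 2.51, SD, n = 2). Zm00001eb040630 had 0 and 0 FPKM in the mutant, against 63.1 and 57.1 FPKM in the wild type (60.1 ± 4.24). Zm00001eb040640 had 0 and 0 FPKM in the mutant, against 46.4 and 42.8 FPKM in the wild type (44.6 ± 2.55). All 3 were slightly higher in wild-type replicate 1, with log2 ratios of -0.08, -0.14 and -0.12 in the order named. Whether adjacent models of this kind are parts of a single transcript was not tested.

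Zm00001eb047730 followed with 0 and 0 FPKM in the mutant, against 18.1 and 70.7 FPKM in the wild type, and its level thus depended on the library. Zm00001eb110860 had 0 and 0 FPKM in the mutant, against 36.9 and 39.6 FPKM in the wild type. Zm00001eb030670 was likewise unread in the mutant, against 33.8 and 35.4 FPKM in the wild type. Except for Zm00001eb047730, these genes differed little between the wild-type libraries.

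Zm00001eb072110 had 0 and 0 FPKM in the mutant, against 31.0 and 31.8 FPKM in the wild type, where it drew 2471 reads over both libraries, the most of the 57 genes, and gave the bound of at least 902-fold. Zm00001eb071350 was at 0 in both mutant libraries, against 30.1 and 28.7 FPKM in the wild-type libraries. Zm00001eb197190 reached 0 and 0 FPKM in the mutant, against 27.8 and 27.3 FPKM in the wild type. Of the 10 highest genes, Zm00001eb073320 came last, with 0 and 0 FPKM in the mutant, against 25.6 and 24.8 FPKM in the wild type.

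Among the genes absent in the wild type, Zm00001eb020270 had the highest level, with 46.4 and 55.8 FPKM in the mutant, against 0 and 0 FPKM in the wild type. It rested on at least 74 and 85 reads in the mutant libraries, against 0 and 0 in the wild-type libraries, and its bound was at least 48.4-fold. These are the fewest whole reads that its FPKM values allow, at a length of 52 bases. Zm00001eb294130 had 42.1 and 53.4 FPKM in the mutant, against 0 and 0 FPKM in the wild type, and with 1816 and 2201 reads in the mutant, against 0 and 0 in the wild type, it was the best-covered member of either direction. Zm00001eb370950 had 29.9 and 30.4 FPKM in the mutant, against 0 and 0 FPKM in the wild type. These 3 genes did not differ by over 1.5-fold between the mutant libraries.

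Zm00001eb035620 had 22.5 and 18.9 FPKM in the mutant, against 0 and 0 FPKM in the wild type. Zm00001eb123010 had 18.6 and 14.8 FPKM, against 0 and 0 FPKM in the wild type. Zm00001eb146470 had 13.1 and 11.6 FPKM in the mutant, Zm00001eb375170 had 12 and 12.7 FPKM, and Zm00001eb168820 had 12.9 and 10.4 FPKM, against 0 FPKM in every wild-type library. The other 2 of the 10 highest genes, Zm00001eb427390 and Zm00001eb427190, varied between the mutant libraries and are described with their run of the gene order.

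The rule has a sharp edge on both sides. The members nearest the threshold of 5 FPKM among the genes absent in the mutant were Zm00001eb379370, with 0 and 0 FPKM in the mutant, against 5.78 and 5.17 in the wild type, Zm00001eb164270, with 0 and 0, against 9.06 and 5.18, and Zm00001eb099140, with 0 and 0, against 5.18 and 12.6. Just outside lay Zm00001eb421880, with 0 and 0 FPKM in the mutant, against 6.26 and 4.83 in the wild type, Zm00001eb302860, with 0 and 0, against 4.78 and 6.26, and Zm00001eb380910, with 0 and 0, against 4.65 and 7.08. Wild-type levels just inside and just outside the threshold thus nearly coincided. In the other direction the nearest members were Zm00001eb168310, with 5.89 and 5.12 FPKM in the mutant, against 0 and 0 in the wild type, Zm00001eb070880, with 5.54 and 7.40, against 0 and 0, and Zm00001eb412280, with 6.98 and 6, against 0 and 0. The nearest outside were Zm00001eb342120, with 5.42 and 4.98 FPKM in the mutant, against 0 and 0 in the wild type, Zm00001eb033340, with 4.87 and 6.24, against 0 and 0, and Zm00001eb132030, with 6.57 and 4.79, against 0 and 0.

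A single read in the other genotype also kept a gene out. Zm00001eb136780 had 0.145 and 0 FPKM in the mutant (1 and 0 reads), against 74.0 and 71.4 FPKM in the wild type (474 and 423 reads), a level above that of every member absent in the mutant. Zm00001eb169320 had 33.0 and 23.5 FPKM in the mutant (863 and 585 reads), against 0 and 0.0447 FPKM in the wild type (0 and 1 reads). Genes with 5 FPKM or more in both wild-type libraries and 1 to 3 reads over both mutant libraries numbered 16, those with 4 to 10 reads 22, and those with 11 to 30 reads 39. In the other direction, 16 genes had 1 to 3 reads over both wild-type libraries, 21 had 4 to 10, and 33 had 11 to 30. These bins cover more read values as they rise, so their counts cannot be compared directly. The single value of 0 reads held 57 genes absent in the mutant and 27 absent in the wild type. Each direction had 16 genes over the wider bin of 1 to 3 reads. Genes with few reads thus existed beside the members, but the counts peaked at exactly 0. At lower expression, 1142 genes were at 0 in both mutant libraries and above 0 in both wild-type libraries, 187 of them at 1 FPKM or more in both. The opposite held for 917 genes, 118 of them at 1 FPKM or more in both mutant libraries.

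The members were short gene models. FPKM steps fix, for each gene, the smallest exon length that turns all its values into whole reads, and the true length is that value or a whole multiple of it. For the genes absent in the mutant this smallest length had a median of 476 bases, against 1721 bases for all genes at 5 FPKM or more in both wild-type libraries, and it was under 500 bases in 32 of the 57 genes (56.1%), against 8.79% of all such genes. For the genes absent in the wild type the median was 500 bases, against 1732 bases for all such genes in the mutant, with 13 of the 27 (48.1%) under 500 bases, against 8.33%. A short model draws fewer reads at a given FPKM, and is thus more often unread, and its part in the absences was not tested. Long members existed in both directions. Zm00001eb072270 had the longest smallest length, 3347 bases, with 0 and 0 FPKM in the mutant, against 5.53 and 5.30 FPKM in the wild type. Zm00001eb421250, at 2249 bases, was the longest of those absent in the wild type, with 10.5 and 9.71 FPKM in the mutant, against 0 and 0 FPKM in the wild type.

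The 6 digits at the end of each ID follow the order of genes along the chromosomes in steps of 10, so the members could be placed in the gene order. A run was defined as members at most 20 gene models apart. Of the 84 members, 31 (36.9%) lay in 12 runs, 3 of which held 3 or more members. Successive members were separated by a median of 147 gene models. If spread evenly, they would lie a mean of 527 gene models apart. That mean is fixed by the numbers of genes and members. Gaps between randomly placed genes also have a median below their mean, so nothing is read from the difference. In 11 pairs, 2 members were immediate neighbours, and in 10 of these both were absent in the same genotype. Of the 12 runs, 8 held only genes absent in the mutant, 3 held only genes absent in the wild type, and 1 held both. Since 57 of the 84 members were absent in the mutant, many pairs would share a direction in any case. No background share was computed for runs or pairs. Genes near each other are not independent, so these are counts with no test.

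**Figure D2:**
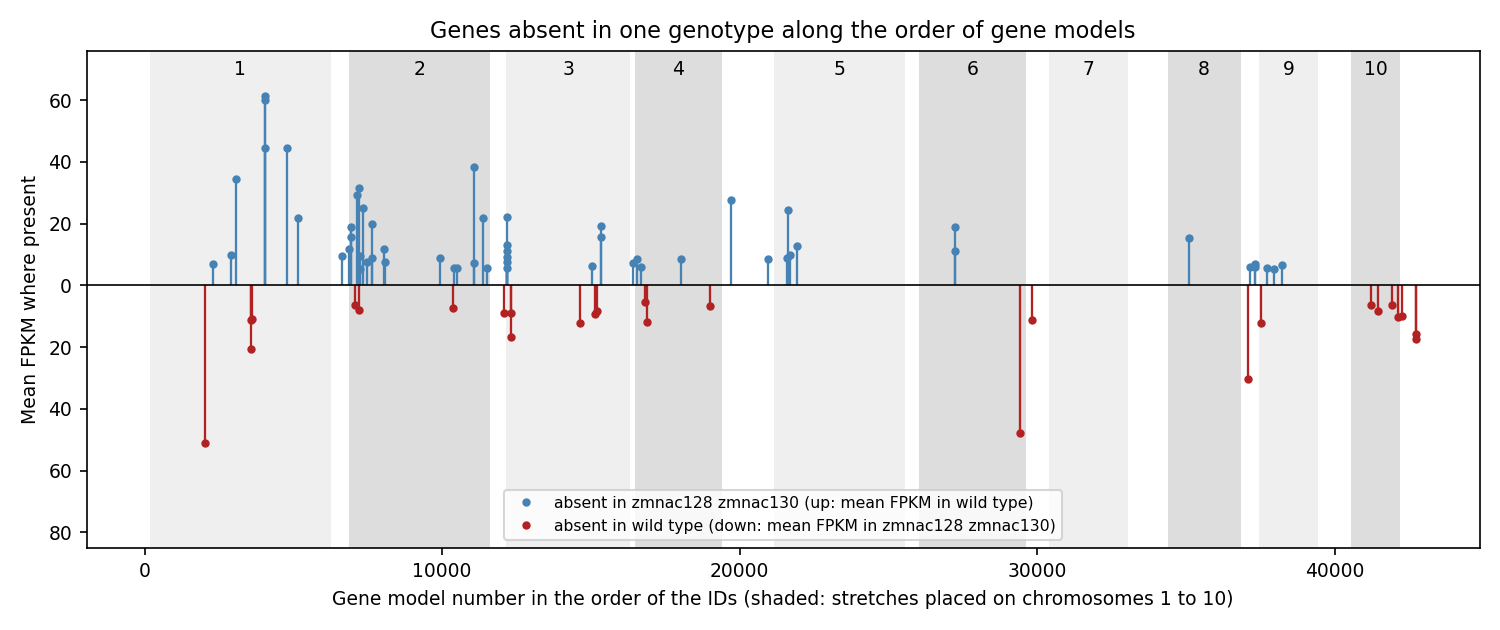
Position of each member in the order of gene model IDs (x axis, gene models), with the mean FPKM where present drawn upward for the 57 genes absent in zmnac128 zmnac130 (level in wild type) and downward for the 27 genes absent in wild type (level in zmnac128 zmnac130). Shaded stretches are those that genes of known place bracket on chromosomes 1 to 10. Chromosome 2 holds 23 placed members and chromosome 7 holds 0 placed members, while 13 members are not placed.

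Chromosomes were assigned from 173 study-listed genes whose accessions RefSeq places on Zm-B73-REFERENCE-NAM-5.0, and a member was placed where the genes on both sides lay on the same chromosome. This placed 71 of the 84 members, on 9 chromosomes, and left 13 unplaced. Chromosome 2 held 23 members, 20 absent in the mutant and 3 absent in the wild type, which is 1.78% of its genes at 5 FPKM or more in both libraries of a genotype, against 0.66% over the whole table. It thus held 35.1% of the genes absent in the mutant, against 10.2% of the genes at 5 FPKM or more. Chromosome 3 held 14 members (1.14%) and chromosome 1 held 12 (0.66%). Only placed genes are counted here, and 2773 genes at that level were not placed. Chromosome 7 held 0 of its 765 placed genes at that level, and chromosome 8 held 1 of 773. Of the unplaced members, 1 lay between the last gene of known place on chromosome 6 and the first on chromosome 7. Another 4 lay between those of chromosomes 8 and 9, so the totals of these chromosomes are not known. On chromosome 10 all 4 placed members were absent in the wild type, and on chromosome 5 all 4 were absent in the mutant.

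Members were also counted over the 172 intervals between successive genes of known place, some of which cross from a chromosome to the next. The 11 intervals with 3 or more members, ends of the order included, held 45 of the 84. Among them are the interval from chromosome 8 to chromosome 9, with 4 members, and the stretch after the last gene of known place, with 3. These 11 intervals were picked by that count and spanned 86 to 2111 gene models, so the count alone does not show unevenness. Members made up 0.775 to 16.7% of their genes at 5 FPKM or more, against 0.66% over the whole table. The interval from Zm00001eb121400 to Zm00001eb127430 on chromosome 3, 7009382 to 34735200 in Zm-B73-REFERENCE-NAM-5.0, held 8 members, 6 absent in the mutant and 2 absent in the wild type, or 4.94% of its 162 genes at 5 FPKM or more. A shorter interval on chromosome 2, from Zm00001eb071650 to Zm00001eb072510 (12342622 to 14415813), held 4 members among 24 such genes, or 16.7%. Next to it, the interval from Zm00001eb068600 to Zm00001eb071650 (6040252 to 12344083) held 5 members among 104, or 4.81%. Chromosome 1 between Zm00001eb033870 and Zm00001eb041250 (187650116 to 217195837) held 6, with 3 in each direction.

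The run with the most members lay in the chromosome 3 interval and spanned 14 gene models from Zm00001eb121670 to Zm00001eb121800. Its 6 members, all absent in the mutant, were Zm00001eb121670, with 0 and 0 FPKM in the mutant, against 22.2 and 22 in the wild type, Zm00001eb121680, with 0 and 0, against 9.37 and 12.6, Zm00001eb121690, with 0 and 0, against 7.15 and 7.86, and Zm00001eb121700, with 0 and 0, against 5.74 and 5.39, which are immediate neighbours, and Zm00001eb121750, with 0 and 0, against 9.72 and 8.84, and Zm00001eb121800, with 0 and 0, against 13.9 and 12.3. Of the 12 models of the run that were above 0 in any library, 7 were at 0 in both mutant libraries and above 0 in the wild type. Between the members, Zm00001eb121710 had 0.928 and 0.358 FPKM in the mutant, against 5.32 and 8.20 FPKM in the wild type, and Zm00001eb121740 had 0 and 0, against 2.42 and 1.89.

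The stretch was nevertheless not silent in the mutant. Zm00001eb121760, directly after a member, had 42.3 and 43.5 FPKM in the mutant, against 54.9 and 55.7 FPKM in the wild type, and was the only model of the run at 1 FPKM or more in all 4 libraries. Zm00001eb121810, just after the last member, had 68.7 and 64.0 FPKM in the mutant, against 38.7 and 40.6 FPKM in the wild type. Expressed and unread genes thus alternated within a few gene models.

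**Figure D3:**
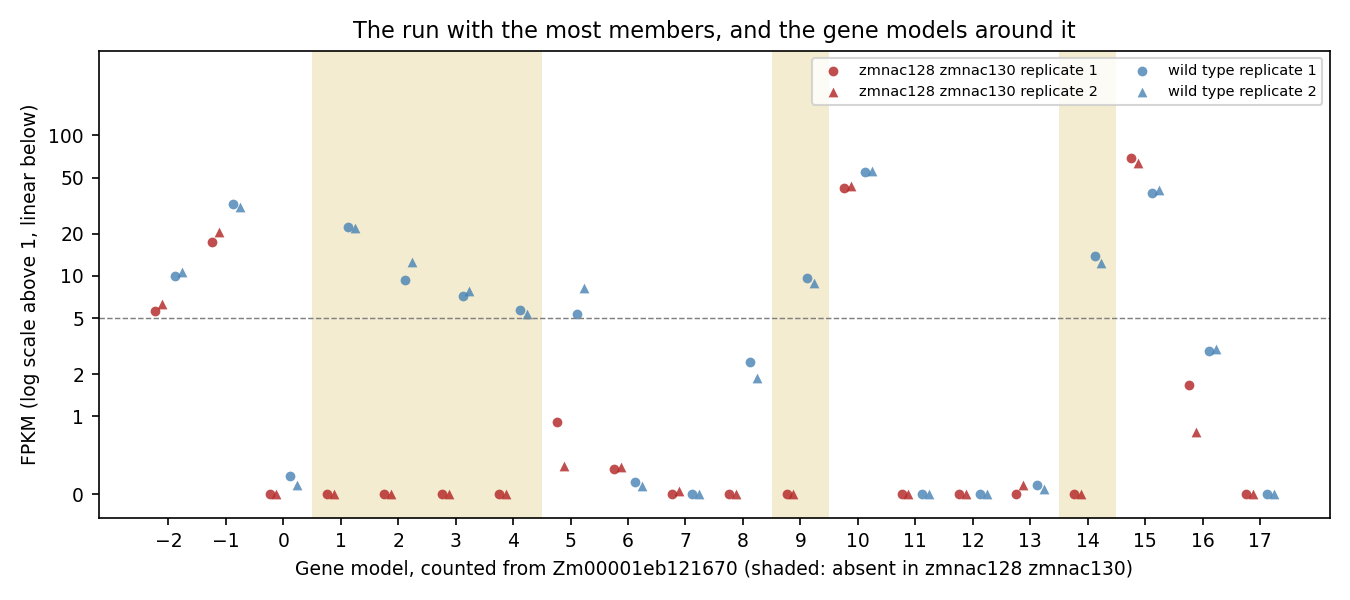
FPKM of every gene model from 3 before to 3 after the run Zm00001eb121670 to Zm00001eb121800, by position in the gene order (x axis, model 1 is the first member), on an axis that is logarithmic above 1 and linear below. Shading marks the 6 members, points are single libraries (red for zmnac128 zmnac130, blue for wild type), and the dashed line is 5 FPKM; the mutant sits at 0 in the shaded models and at 42.3 and 43.5 FPKM in model 10 between them.

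The run on chromosome 2 held members of both directions. Zm00001eb072110, at 0 and 0 FPKM in the mutant, against 31.0 and 31.8 FPKM in the wild type, was followed immediately by Zm00001eb072120, with 7.62 and 8.19 FPKM in the mutant, against 0 and 0 FPKM in the wild type. This was the single pair of adjacent members that were absent in opposite genotypes. Further along, Zm00001eb072250 had 0 and 0 FPKM in the mutant, against 10.9 and 7.87 in the wild type, and Zm00001eb072270 had 0 and 0, against 5.53 and 5.30. Zm00001eb072190 and Zm00001eb072220 between them were read in every library, Zm00001eb072190 with 12.7 and 15.3 FPKM in the mutant, against 10.2 and 12.4 in the wild type, and Zm00001eb072220 with 21.1 and 23.4 FPKM in the mutant, against 20.6 and 21.6 in the wild type. The run of Zm00001eb040620 to Zm00001eb040640 on chromosome 1, described above, comprised only its 3 members.

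The 3 runs of genes absent in the wild type held 2 members each, as did most runs of genes absent in the mutant, and in 2 of the 3 the members were neighbours. Zm00001eb035610 and Zm00001eb035620 on chromosome 1 adjoined each other, Zm00001eb035610 with 13.1 and 9.20 FPKM in the mutant, against 0 and 0 in the wild type. The model before them, Zm00001eb035600, had 1.03 and 2.69 FPKM in the mutant, against 0 and 0 in the wild type, and the model after them, Zm00001eb035630, had 39.2 and 44.4 FPKM in the mutant, against 42.4 and 41.7 in the wild type. Zm00001eb123010 and Zm00001eb123020 on chromosome 3 were also neighbours, Zm00001eb123020 with 9.99 and 7.86 FPKM in the mutant, against 0 and 0 in the wild type, and they were followed by Zm00001eb123030, with 0.887 and 0.422 FPKM, against 0 and 0. In both stretches the absence in the wild type extended over 3 successive models and was followed by a model read in every library.

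The level of a member where it was present varied more between the libraries of that genotype than did all genes at 5 FPKM or more. Those genes were not matched to the members for level or length. Members had lower FPKM and shorter models, and so fewer reads, and the part of this in their wider ratios was not tested. Over the genes absent in the mutant, the absolute log2 ratio of the wild-type libraries had a median of 0.14, against 0.11 for all 11692 genes at 5 FPKM or more. Of the 57 genes, 9 (15.8%) differed by over 1.5-fold, against 1.58% of all such genes, and 3 (5.26%) by over 2-fold, against 0.274%. Wild-type replicate 2 was the higher library in 8 of the 9, while over all such genes it was so in 112, against 73 with replicate 1 higher. For the genes absent in the wild type the median absolute log2 ratio of the mutant libraries was 0.25, against 0.15 for all 11520 such genes, and 2 of 27 (7.41%) differed by over 1.5-fold, against 3.67% of all such genes. The same 2 genes, which lie in a single run, differed by over 2-fold, against 0.79% of all such genes. These ratios were not used by the rule beyond the requirement of 5 FPKM in both libraries.

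**Figure D4:**
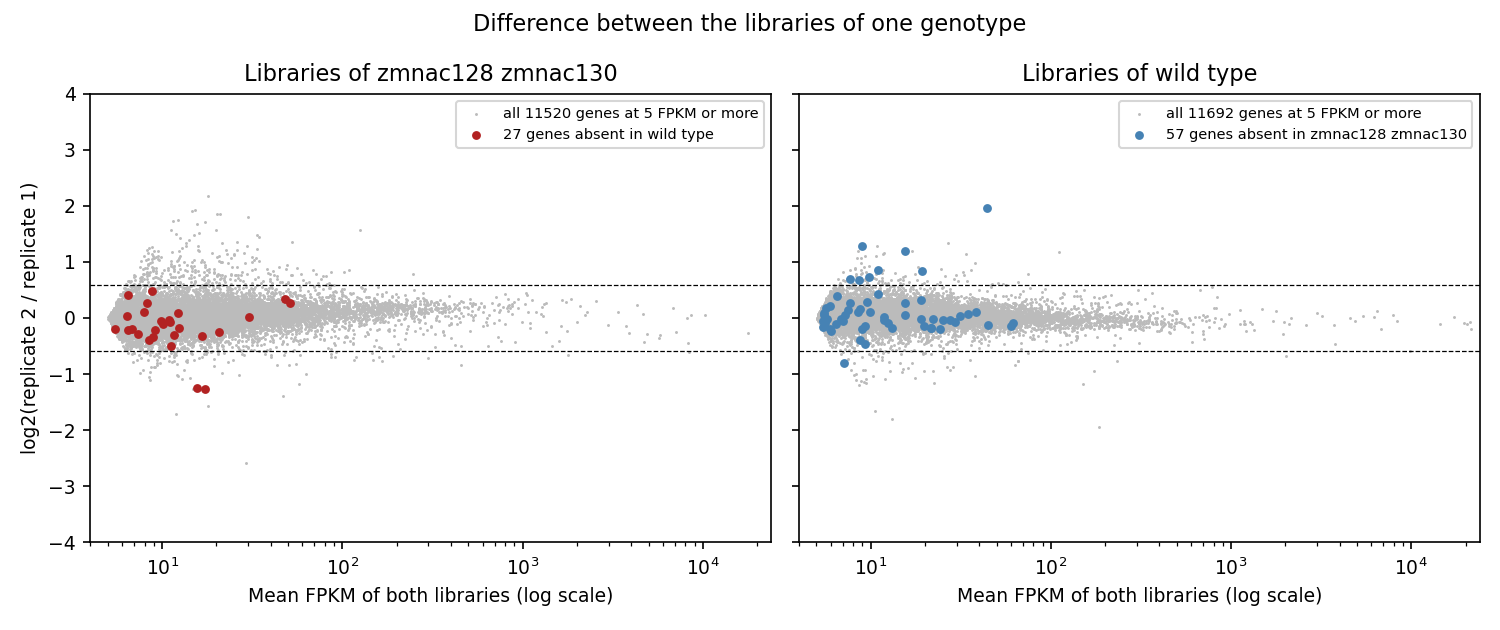
Log2 ratio of replicate 2 to replicate 1 (y axis) against the mean FPKM of both libraries (x axis, log scale) for zmnac128 zmnac130 on the left and wild type on the right. Grey points are all genes at 5 FPKM or more in both libraries of that genotype, coloured points are the members present there, and dashed lines mark 1.5-fold; 2 of 27 members on the left and 9 of 57 on the right lie outside the lines.

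The most divergent case was Zm00001eb047730, at 0 and 0 FPKM in the mutant, against 18.1 and 70.7 FPKM in the wild type (181 and 653 reads), a log2 ratio of 1.96 between the wild-type libraries that 0 of the 11692 genes exceeded in size. The model before it, Zm00001eb047720, went the same way, with 0 and 0.244 FPKM in the mutant, against 3.26 and 15.1 FPKM in the wild type, a log2 ratio of 2.21 between the wild-type libraries. The nearest well-read model, Zm00001eb047760, had 5.88 and 8.17 FPKM in the mutant, against 5.91 and 7.08 FPKM in the wild type. Zm00001eb047750, in between, was low, with 0.311 and 0.591 FPKM in the mutant, against 0.587 and 1.09 FPKM in the wild type. The imbalance was thus largest in the adjoining pair and smallest in the gene 3 models away, whose log2 ratio was 0.26.

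The neighbours Zm00001eb153390 and Zm00001eb153400 on chromosome 3 showed the same kind of imbalance. Zm00001eb153390 had 0 and 0 FPKM in the mutant, against 9.45 and 21.7 FPKM in the wild type, and Zm00001eb153400 had 0 and 0, against 13.8 and 24.7, log2 ratios of 1.20 and 0.84 between the wild-type libraries. The 2 models after them were also at 0 in both mutant libraries, with Zm00001eb153410 at 1.36 and 1.93 FPKM and Zm00001eb153420 at 1.5 and 2.9 FPKM in the wild type. Zm00001eb153380, the model before them, had 6.41 and 7.65 FPKM in the mutant, against 8.80 and 7.93 FPKM in the wild type, a log2 ratio of -0.15 between the wild-type libraries.

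In the mutant, Zm00001eb427190 and Zm00001eb427390, which lie 20 gene models apart and after the last gene of known place, had almost the same ratio between libraries. Zm00001eb427190 had 22 and 9.31 FPKM in the mutant (925 and 373 reads), against 0 and 0 FPKM in the wild type, a log2 ratio of -1.24, and Zm00001eb427390 had 24.5 and 10.2 FPKM in the mutant (306 and 122 reads), against 0 and 0 FPKM in the wild type, a log2 ratio of -1.26. Next to the second, Zm00001eb427400 had 64.9 and 36.2 FPKM in the mutant, against 1.08 and 1.49 FPKM in the wild type, and after it Zm00001eb427410, which is low in both genotypes, had 1.74 and 0.73 FPKM in the mutant, against 0.768 and 1.32 FPKM in the wild type. In these 4 models replicate 1 was the higher mutant library. Between the members, Zm00001eb427290 had 21.4 and 24.7 FPKM in the mutant, against 21.4 and 22.5 FPKM in the wild type, and Zm00001eb427320 had 154 and 153 FPKM in the mutant, against 179 and 204 FPKM in the wild type. Other models of the stretch were higher in mutant replicate 2, among them Zm00001eb427200, with 4.4 and 6.77 FPKM in the mutant, against 7.57 and 7.48 FPKM in the wild type, Zm00001eb427250, with 3.23 and 4.65, against 5.2 and 6.07, and Zm00001eb427260, with 1.8 and 2.78, against 2 and 2.44. The models between the members thus differed in either direction between the mutant libraries.

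Genes beside the members were not used by the rule and could be compared between genotypes. The fit was limma on log2(FPKM + 1) over the 19082 genes averaging 1 FPKM or more, with a call at an absolute log2 fold change (mutant minus wild type) above 1 and a Benjamini-Hochberg adjusted p below 0.05 over all of them. It called 2598 genes, or 13.6%, with 6.43% higher and 7.18% lower in the mutant. With 2 libraries per genotype and nothing to say that they came from separate ears, its p-values measure only the spread between these libraries. All 84 members were among the genes tested and called, in the direction that the rule fixes, and nothing is read from that.

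Of 695 genes within 5 gene models of a member and not members themselves, 320 were tested and 69 called, 30 higher and 39 lower in the mutant, or 21.6%, against 13.6% over all genes tested. Beside the genes absent in the mutant, 210 were tested, of which 18 (8.57%) were higher and 29 (13.8%) were lower in the mutant, against 6.43 and 7.18% of all. Beside the genes absent in the wild type, 111 were tested, of which 12 (10.8%) were higher and 10 (9.01%) were lower. The median log2 fold change of the neighbours stayed near 0 in both sets, at -0.09 beside the genes absent in the mutant and 0.00 beside those absent in the wild type, against 0.0068 over all genes tested.

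Absence was also more frequent among the neighbours. Of the 376 neighbours of genes absent in the mutant that were above 0 in any library, 33 (8.78%) were at 0 in both mutant libraries and above 0 in both wild-type libraries, against 3.4% of all genes above 0, while 5 (1.33%) had the opposite pattern, against 2.73%. Of the 198 neighbours of genes absent in the wild type, 14 (7.07%) were at 0 in both wild-type libraries and above 0 in both mutant libraries, against 2.73% of all, and 2 (1.01%) had the opposite pattern, against 3.4%. Genes beside a member were thus more often unread in the genotype in which that member was unread, in both directions.

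Several neighbours nearly met the rule themselves. Zm00001eb377320, next to the member Zm00001eb377330, had 0 and 0.25 FPKM in the mutant, against 33.1 and 39.9 FPKM in the wild type (limma log2 fold change -5.06 ± 0.17, SE, adjusted p = 2.89e-05). Zm00001eb216350, next to Zm00001eb216360, had 0.236 and 0.237 FPKM in the mutant, against 16.8 and 15.6 FPKM in the wild type (-3.80 ± 0.13, limma adjusted p = 3.073e-05). Beside the member Zm00001eb370950, Zm00001eb370920 had 12.2 and 12.5 FPKM in the mutant, against 0.0552 and 0.0199 FPKM in the wild type (3.69 ± 0.13, limma adjusted p = 3.527e-05). These 3 moved in the direction of the member beside them.

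Neighbours could also move the other way. Zm00001eb166850, next to Zm00001eb166840, which is absent in the mutant, had 16.8 and 18.4 FPKM in the mutant, against 0.259 and 0 FPKM in the wild type (4.05 ± 0.16, limma adjusted p = 4.546e-05). Zm00001eb070890, next to Zm00001eb070880, which is absent in the wild type, had 0.335 and 0.351 FPKM in the mutant, against 7.15 and 7 FPKM in the wild type (-2.59 ± 0.14, limma adjusted p = 0.0001024). These near-complete absences in opposite genotypes stood side by side, as in the pair on chromosome 2.

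The 3 called neighbours with the highest mean FPKM changed less than those just named, and no trend with level over all called neighbours was tested. Zm00001eb029200 had 301 and 368 FPKM in the mutant, against 117 and 121 FPKM in the wild type (log2 fold change 1.47 ± 0.12, limma adjusted p = 0.0004133). Zm00001eb113830, next to the member Zm00001eb113840, had 126 and 94.4 FPKM in the mutant, against 272 and 328 FPKM in the wild type (-1.45 ± 0.16, limma adjusted p = 0.0013). Zm00001eb103570 had 165 and 200 FPKM in the mutant, against 430 and 367 FPKM in the wild type (-1.13 ± 0.14, limma adjusted p = 0.001599). Each of these 3 genes was read in all 4 libraries. The called neighbours named so far were picked after their values were seen.

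The 6 neighbours of runs with the highest FPKM, taken by level alone, gave 1 call. Zm00001eb069330, beside a run on chromosome 2, had 83.4 and 98.8 FPKM in the mutant, against 39.3 and 37.8 FPKM in the wild type (log2 fold change 1.21 ± 0.11, SE, limma adjusted p = 0.0005474). In the same stretch Zm00001eb069390, immediately after the members Zm00001eb069370 and Zm00001eb069380, had 60.4 and 56.5 FPKM in the mutant, against 43.6 and 44.7 FPKM in the wild type (0.40 ± 0.09), which was under the fold required. The 4 others, Zm00001eb427180, Zm00001eb121810, Zm00001eb072290 and Zm00001eb121760, had log2 fold changes of 0.36, 0.73, 0.27 and -0.36 in that order and were not called. These 6 genes, each within 5 gene models of an unread member, were read at 37.8 FPKM or more in all 4 libraries.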

How the data were processed

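The authors aligned clean paired-end reads to the B73 genome RefGen_v5 with HISAT2 and deposited FPKM values of 44303 genes for 6 labelled samples. The counting program and the handling of reads that fit several gene copies are not given in the sources used here, so members with near-identical copies, and overlapping genes, are uncertain. Replicate 3 equalled replicate 1 in both genotypes and was counted once. The members and lists were chosen with earlier results of these data known.

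Whole reads were recovered from the FPKM steps (tolerance 0.002 reads), and the lengths so fitted accounted for 98.4 to 98.6% of reads in genes per library. Members are named as the 10 highest per direction, all members of the 3 largest runs, the 3 nearest the threshold on each side, and neighbours. Runs joined members at most 20 gene models apart, and neighbours lay within 5. All genes were compared with limma 3.58.1 in R 4.3.3 (trend, two-sided, pseudocount 1, mean FPKM of at least 1), with Python 3.11.15 for the rest. Both steps were tested on simulated data. The sources give no gene model ID for ZmNAC128 or ZmNAC130, so the targeted genes were not checked, and markers of embryo, aleurone and pericarp could not be matched to IDs.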

Additional observations from a re-analysis of the deposited data

How the results depend on the processing

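The number of members followed the thresholds. With a presence threshold of 1 FPKM, 187 genes were absent in the mutant, 118 absent in the wild type and 142 of them lay in runs, with 2 FPKM the counts were 134, 70 and 82, and with 10 FPKM they were 24, 11 and 7. With absence taken as at most 0.5 FPKM, 115, 77 and 88 resulted. A limit of 0.1 FPKM, median-of-ratios scaling and joining runs at 10 or 50 gene models left each count within 1.5-fold. Leaving out 1 library at a time gave 63 to 67 genes absent in the mutant, 29 to 38 absent in the wild type and 34 to 40 in runs. The main counts were 57, 27 and 31. The rule sets a condition on every library, so leaving 1 out can only keep or raise these counts, and the ranges do not show stability. The same step gave 2152 to 2732 genes called and 17.4 to 23.3% of neighbours called.

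With genes of a mean of at least 10 FPKM only, 936 genes were called and 13.7% of neighbours, against 11.1% of all genes tested. With a pseudocount of 10, 612 genes were called and 5.31% of neighbours, against 3.21% of all. Same-numbered libraries did not deviate together (r = -0.0779 over 19082 genes), and a fit with the replicate number as a block called 2632 genes and 21.6% of neighbours. In every alternative run, the share of neighbours called stayed above that of all genes tested.

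The recovered reads and lengths are the smallest whole solutions, which makes the bounds on fold changes conservative. With 2 libraries per genotype from pooled F2 endosperm, alleles segregating in the cross and the NAC mutations cannot be told apart.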
